A study of Mus musculus with 6 samples.

Results

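Chemokine ligands and interleukins are the secreted signals through which cells of a muscle call in and instruct other cells. They were followed here across induced muscle progenitors, satellite cells and fibroblasts of the mouse. Members were taken by name and read number: genes called Cxcl, Ccl, Cx3cl or Il with a number, plus Lif, with at least 10 counts summed over the 6 libraries. The choice was made with earlier results of these data known. Of 38924 genes, 69 matched these names and 52 reached 10 counts, namely 12 Cxcl and Cx3cl genes, 19 Ccl genes, 20 interleukin genes and Lif. The remaining 17 included 8 with no count in any library. Il25 with 11 summed counts and Il27 with 12 lay just inside the limit, and Il12b with 7 lay just outside it. The 52 members carry 51 symbols, because Ccl25 is listed under a pair of gene identifiers.

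The libraries were poly(A)-selected RNA of 5 groups. Induced myogenic progenitors (iMPCs) are muscle precursors obtained by reprogramming fibroblasts. They carried nuclear GFP reporting Pax7, the transcription factor that marks muscle stem cells, and the Pax7-positive and Pax7-negative sorted fractions had 1 library each. Per the labels' protocols, expanded iMPC cultures grew without doxycycline, with serum, basic FGF, forskolin at 5 µM, RepSox at 5 µM and a GSK3 inhibitor at 3 µM. Both embryonic and tail-tip fibroblasts were reprogrammed per the labels, which leave unsaid which of them gave these cultures and whether they were clones. Activated satellite cells (ASC), with Pax7-plus and p1 in their title, had 1 library, and so had mouse embryonic fibroblasts (MEFs). Quiescent satellite cells (QSC), by name the resting muscle stem cells, had 2 libraries, named mouse 1 and mouse 3. The sources used here give no strain, no age and no medium for ASC and MEFs.

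Chemokines act on receptors of the G protein-coupled class and steer migrating leukocytes. CXC members with an ELR motif attract neutrophils through Cxcr2, many CC members attract monocytes, eosinophils or lymphocytes, and homeostatic members such as Cxcl12 position cells in resting tissue. Interleukins signal through receptor families that share chains: Il6, Il11 and Lif use gp130 (Il6st), while Il1b, Il18 and Il33 belong to the IL-1 family. In injured muscle, neutrophils and monocytes enter early, and Il6 and Lif are known to act on satellite cells. Many of these genes are switched on by the transcription factor NF-kB, and chemokine and immediate early transcripts are known to be induced while tissue is dissociated into single cells.

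Library totals ranged from 20859611 to 29279686 counts, and 18309 to 19545 genes had at least 1 count. The unit of level is CPM, the count relative to the library's total after TMM (trimmed mean of M values) scaling. Pax7 itself had 37.8 CPM in Pax7-positive iMPCs, 6.25 CPM in Pax7-negative iMPCs, 19.8 CPM in ASC, 0 counts in MEFs, and 34.5 and 160 CPM in QSC of mouse 1 and mouse 3. The 15 immune cell markers, Ptprc and Lyz2 among them, summed to 3.19 CPM in Pax7-positive iMPCs, 17.7 in Pax7-negative iMPCs, 8.36 in ASC and 17 in MEFs, against 313 and 193 in QSC. The 9 endothelial markers summed to 5.15, 22.5, 3.88 and 18.9 CPM in the same 4 libraries, against 179 and 42.5 in QSC. The 7 muscle lineage markers summed to 3760, 4694, 17042 and 98.3 CPM there, against 3959 and 4075 CPM in QSC. Acta1 had 6832 CPM in ASC, against 65.8 and 9.32 in QSC, and Myh3 had 4413, against 2.81 and 1.09. Myog had 2055 CPM in ASC, against 189 in QSC of mouse 1 and 4.07 in mouse 3. For Myod1 the values were 1029 CPM in ASC and 1836 and 630 CPM in QSC. The part of these muscle genes in the members' levels was not tested. A list of 10 genes of dissociation stress, such as Fos and Hspa1a, summed to 879 to 1202 CPM in the 4 other libraries, against 63543 and 75163 CPM in QSC. The QSC mice also differed in Xist (0.0954 CPM in mouse 1 and 530 CPM in mouse 3) and in the Y-linked Ddx3y (455 and 0.226 CPM), so their spread, on which every p-value rests, includes a difference between a male and a female. Fewer cells of a type and less RNA per cell cannot be told apart in such bulk samples.

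The members made up 0.0255% of all counts in Pax7-positive iMPCs, 0.171% in Pax7-negative iMPCs, 0.0366% in ASC and 0.112% in MEFs, against 0.444% and 0.141% in QSC of mouse 1 and mouse 3. Cxcl1 alone gave 69.2% and 53% of the members' counts in the QSC libraries, against 16.3% in Pax7-positive iMPCs, 6.84% in Pax7-negative iMPCs, 0.301% in ASC and 1.1% in MEFs. Without Cxcl1, the summed level was 181 CPM in Pax7-positive iMPCs, 1317 in Pax7-negative iMPCs, 328 in ASC and 967 in MEFs, against 1908 and 866 CPM in QSC, so that Pax7-negative iMPCs and MEFs lay between the QSC mice and the other 2 libraries lay below them. At least 5 CPM was reached by 9 members in Pax7-positive iMPCs, 15 in Pax7-negative iMPCs, 4 in ASC and 9 in MEFs, against 23 and 19 in QSC. Of the 28 members that reached 5 CPM in some library, 12 were highest in QSC of mouse 1 and 7 in QSC of mouse 3. Another 6 were highest in Pax7-negative iMPCs, 2 in ASC, 1 in MEFs and 0 in Pax7-positive iMPCs. TMM scaling, with factors of 0.7165 and 0.7628 in QSC and 1.113 to 1.212 elsewhere, raises CPM in QSC. The shares of all genes at 5 CPM or highest in each library are not given here. These counts are therefore not read as a result about the members.

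Ranked within a library by RPKM, the deposited read counts scaled to library size and to gene length, the leading members differed between cells. Cxcl1 at 43.6 RPKM, Cxcl5 at 33.9 and Ccl2 at 21.3 led in Pax7-positive iMPCs. Il33 at 259 RPKM, Ccl7 at 236 and Ccl2 at 159 led in Pax7-negative iMPCs. In ASC the order was Cxcl12 at 72.9 RPKM and Cx3cl1 at 47.4, followed at a distance by Il34 at 9.03. MEFs had Cxcl12 at 273 RPKM, Ccl7 at 175 and Ccl2 at 80.8 in front. QSC of mouse 1 had Cxcl1 at 3223 RPKM before Ccl2 at 373 and Cxcl2 at 357, while QSC of mouse 3 had Cxcl1 at 782 RPKM before Ccl19 at 122 and Ccl7 at 101.

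**Figure D1:**
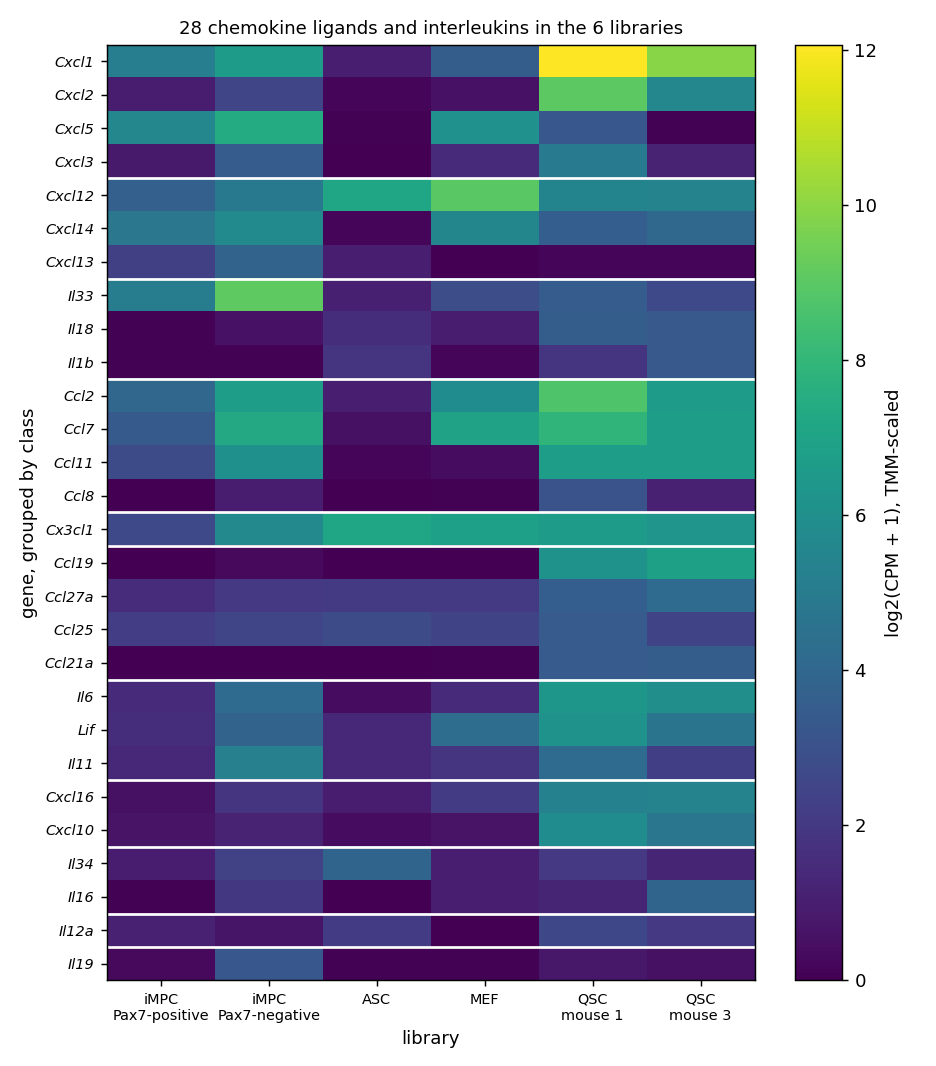
Level of the 28 members that reached 5 CPM in some library. Rows are genes grouped by class, columns are the 6 libraries, and colour is log2(CPM + 1) after TMM scaling. The brightest cell is Cxcl1 in QSC of mouse 1 at 4288 CPM, and the Ccl19 and Ccl21a rows are dark outside QSC.

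Each of the 4 lone groups was set against QSC with edgeR's quasi-likelihood test on all 6 libraries, in which 46 members and 17116 genes in all were tested and a lone library was assumed to vary as the QSC mice do. A gene counts as called where the Benjamini-Hochberg adjusted p was below 0.05. In Pax7-positive iMPCs 3 members rose and 19 fell, against a background of 11.3% of all genes tested called higher and 9.31% called lower. The median log2 difference of the members was -4.12 (-3.99 with genes at 0 counts set to their bound), against -0.03 for all genes. In Pax7-negative iMPCs 6 members rose and 8 fell, against a background of 12.1% higher and 6.57% lower, with a median of -1.28 for members and 0.15 for all genes. In ASC 1 member rose and 18 fell, with backgrounds of 11.8% and 8.24%, and the median was -4.60 (-3.61 at the bound) against 0.00. In MEFs 3 members rose and 12 fell, with backgrounds of 11.3% and 8.03%, and the median was -3.38 (-2.31 at the bound) against 0.00. The share of members called lower was 41.3% in Pax7-positive iMPCs, 17.4% in Pax7-negative iMPCs, 39.1% in ASC and 26.1% in MEFs. These comparisons share the QSC libraries and are not independent of each other.

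The 6 members that fell in all 4 comparisons were Cxcl1, Cxcl2, Cxcl10, Cxcl16, Ccl19 and Ccl21a. With library size scaling 3 of them, Cxcl10, Ccl19 and Ccl21a, were called lower in all 4. Lower than both QSC libraries were 33 of 46 members in Pax7-positive iMPCs, 23 in Pax7-negative iMPCs, 31 in ASC and 30 in MEFs, where 40.6%, 37.1%, 39.1% and 39.7% of all genes tested lay below both. Scaling by library size alone, which raised the median of all genes by 0.59 to 0.71, left 2 members higher and 12 lower in Pax7-positive iMPCs (background 11.7% and 3.1%), 4 and 3 in Pax7-negative iMPCs (12.5% and 1.92%), 1 and 12 in ASC (10.9% and 2.93%) and 2 and 8 in MEFs (10.7% and 2.69%). In Pax7-negative iMPCs, 42.9% of the called members were higher with TMM and 57.1% with library size alone. DESeq2 called 2 members higher and 23 lower in Pax7-positive iMPCs (background 9.81% and 11.4%), 3 and 9 in Pax7-negative iMPCs (9.64% and 9.2%), 1 and 18 in ASC (9.81% and 10.9%) and 1 and 13 in MEFs (9.84% and 10.7%).

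**Figure D2:**
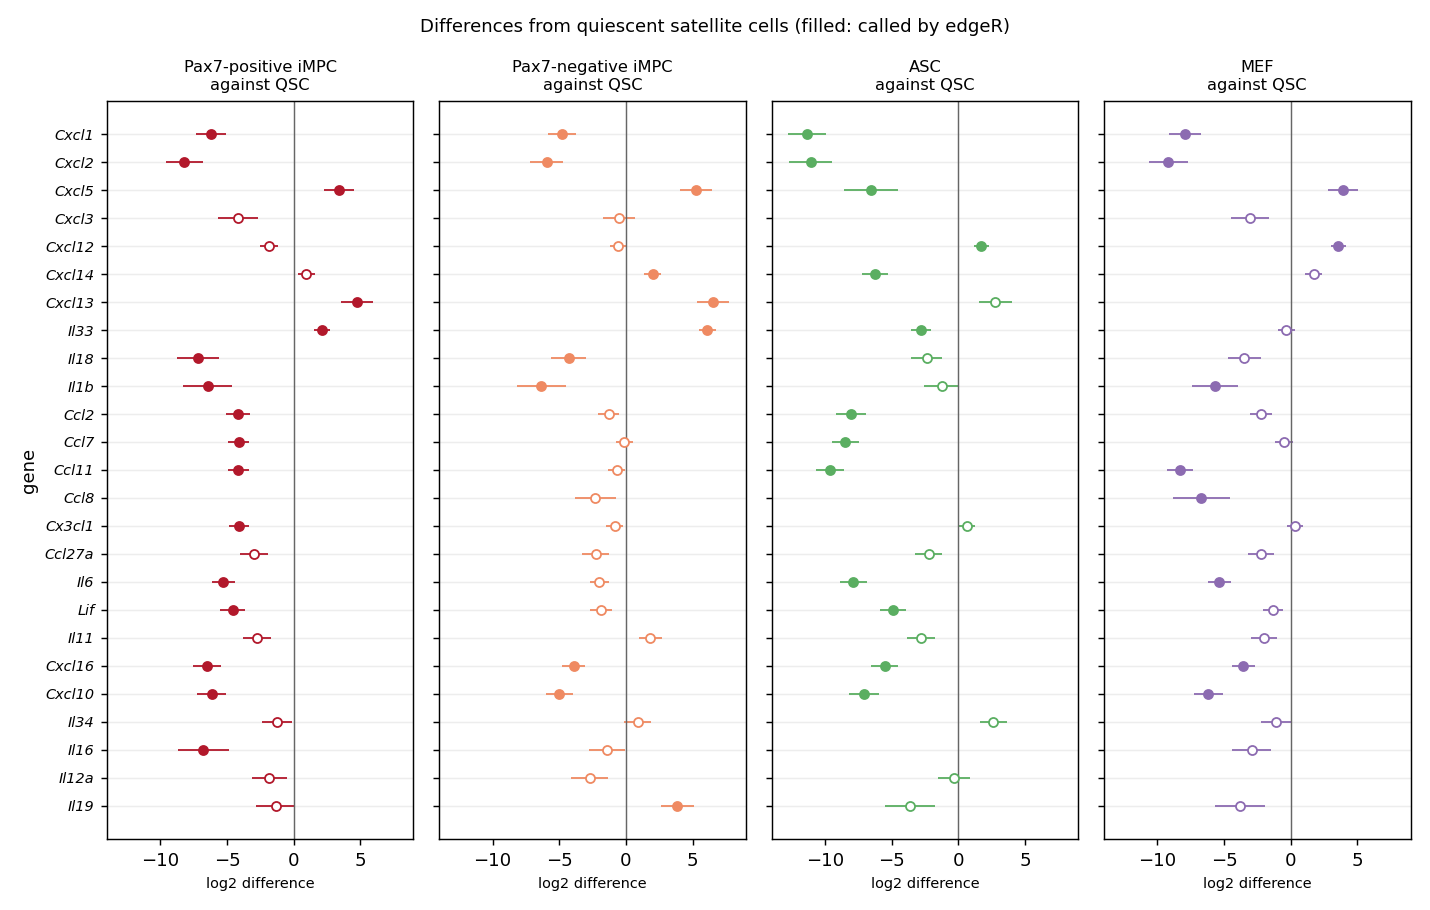
Log2 difference from QSC (horizontal axis) for members that reached 5 CPM, in Pax7-positive iMPCs, Pax7-negative iMPCs, ASC and MEFs. Points are edgeR estimates, bars are 1 SE, and filled points passed an adjusted p of 0.05. Genes with 0 counts in the lone library are left out of its panel, and Ccl19, Ccl21a and Ccl25 of all panels. Most filled points lie left of 0 in Pax7-positive iMPCs and ASC, while Il33, Cxcl5 and Cxcl13 lie right of 0 in both iMPC fractions.

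Among the neutrophil attractants, Cxcl1 and Cxcl2 were highest in QSC, while Cxcl5 was highest in Pax7-negative iMPCs. The stretches of 250 bases before their starts are printed because Cxcl1, Cxcl2 and Cxcl3, which lie close together on chromosome 5, share the run GGGAATTTCC. Those of Cxcl10 and Il6, which fell like Cxcl1 and Cxcl2 in Pax7-positive iMPCs, ASC and MEFs, are printed too. Ccl19, Ccl21a and Ccl8 also fell there, and their stretches are not printed. Ccl11 and Cxcl16 fell there too, and no RefSeq promoter was matched to them. Capitals mark matches on either strand to the core of NF-kB sites, GGG then any 3 bases then TTCC, and to the AP-1 site TGANTCA, and overlapping matches run together. Sequences are from RefSeq on GRCm38.p6, which is not the build of the counts, and run 5′ to 3′ on the gene's strand.
Cxcl1 (chr5:90890995-90891244, plus strand): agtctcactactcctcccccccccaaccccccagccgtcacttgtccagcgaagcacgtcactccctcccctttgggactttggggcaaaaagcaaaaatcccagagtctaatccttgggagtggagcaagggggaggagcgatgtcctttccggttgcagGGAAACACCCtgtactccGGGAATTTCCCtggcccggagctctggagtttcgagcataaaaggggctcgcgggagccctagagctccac
Cxcl2 (chr5:90903649-90903898, plus strand): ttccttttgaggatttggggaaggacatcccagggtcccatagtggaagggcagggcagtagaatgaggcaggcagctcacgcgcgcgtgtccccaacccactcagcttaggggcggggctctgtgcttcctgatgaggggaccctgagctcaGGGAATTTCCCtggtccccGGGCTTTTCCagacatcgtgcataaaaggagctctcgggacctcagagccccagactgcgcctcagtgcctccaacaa
Cxcl3 (chr5:90785851-90786100, plus strand): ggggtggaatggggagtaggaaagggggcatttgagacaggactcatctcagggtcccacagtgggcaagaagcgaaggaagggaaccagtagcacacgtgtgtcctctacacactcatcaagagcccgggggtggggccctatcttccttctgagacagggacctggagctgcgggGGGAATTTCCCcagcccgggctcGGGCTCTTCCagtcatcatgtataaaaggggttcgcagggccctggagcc
Cxcl10 (chr5:92348890-92349139, minus strand): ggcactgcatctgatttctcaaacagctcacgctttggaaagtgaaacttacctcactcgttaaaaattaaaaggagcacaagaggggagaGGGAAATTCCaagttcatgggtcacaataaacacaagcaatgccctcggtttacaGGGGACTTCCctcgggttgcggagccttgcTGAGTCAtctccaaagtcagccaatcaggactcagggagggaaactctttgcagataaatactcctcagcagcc
Il6 (chr5:30012864-30013113, plus strand): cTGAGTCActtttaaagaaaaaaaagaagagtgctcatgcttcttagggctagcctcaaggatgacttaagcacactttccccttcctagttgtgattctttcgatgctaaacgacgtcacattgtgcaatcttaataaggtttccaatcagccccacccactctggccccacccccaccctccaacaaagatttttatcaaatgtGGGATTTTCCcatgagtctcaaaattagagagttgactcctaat
Of 51 member symbols 34 had a RefSeq promoter, with 42 windows between them. The NF-kB letters occurred in 8 of these (19%), against 4.65% of 32851 windows of all genes, and the AP-1 letters also in 8 (19%), against 6.75%. TGACGTCA, the cAMP response element, occurred in 0 of 42, against 1.55% of all windows. The NF-kB letters were settled after these promoters had been read, so the share is a description. The windows of Il33 and Cxcl12 held none of the 3 motifs, nor did those of Ccl19, Ccl21a and Ccl8, which were highest in QSC. The NF-kB letters also occurred before Ccl20, with 0 counts in both QSC libraries, and before Ccl9, highest in Pax7-negative iMPCs. The run shared by Cxcl1, Cxcl2 and Cxcl3 also occurred in a window of Il16, on chromosome 7. This says nothing beyond these letters in these windows.

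Cxcl1, the main mouse neutrophil attractant, had 35.2 CPM in Pax7-positive iMPCs, 96.6 in Pax7-negative iMPCs, 0.991 in ASC and 10.8 in MEFs, against 4288 and 978 CPM in QSC of mouse 1 and mouse 3. All 4 libraries lay below both QSC mice, and it fell by 6.22 ± 1.13 (SE) on the log2 scale in Pax7-positive iMPCs (edgeR adjusted p = 0.00105) and fell by 11.37 ± 1.42 in ASC (edgeR adjusted p = 2.97e-05). It fell by 4.77 ± 1.04 in Pax7-negative iMPCs, a call not made with library size scaling, and fell by 7.93 ± 1.22 in MEFs. Against mouse 3 alone, the mouse with less Cxcl1, the difference in Pax7-positive iMPCs was -4.79, and against mouse 1 alone it was -6.92. Cxcl2, a second Cxcr2 ligand, had 0.965 CPM in Pax7-positive iMPCs, 4.66 in Pax7-negative iMPCs, 0.129 in ASC and 0.486 in MEFs, against 526 and 47.4 CPM in QSC. Its groups did not overlap either, and it fell by 8.21 ± 1.38 in Pax7-positive iMPCs (edgeR adjusted p = 0.000615), with -8.98 against mouse 1 alone and -5.51 against mouse 3 alone. The call in Pax7-negative iMPCs (-5.94 ± 1.23, edgeR adjusted p = 0.00292) was not made with library size scaling (edgeR adjusted p = 0.0806).

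Cxcl3 followed a different order, with 0.837 CPM in Pax7-positive iMPCs, 10.5 in Pax7-negative iMPCs, 0 counts in ASC and 1.83 in MEFs, against 28.9 and 1.31 CPM in QSC. The ASC difference passed (edgeR adjusted p = 0.00484) but not with library size scaling (edgeR adjusted p = 0.0846), and DESeq2 also called Pax7-positive iMPCs lower. ASC was at least 114-fold lower than QSC, taking 3 counts as the floor, with at least 224-fold against mouse 1 alone and 10.1-fold against mouse 3 alone. Cxcl5, a Cxcr2 ligand of epithelial and stromal cells, had 47.5 CPM in Pax7-positive iMPCs, 170 in Pax7-negative iMPCs, 0.0431 in ASC and 67.6 in MEFs, against 8.82 and 0.0452 CPM in QSC. Both iMPC fractions and MEFs were above either QSC mouse. edgeR called it higher in Pax7-positive iMPCs (3.42 ± 1.13, adjusted p = 0.0399), Pax7-negative iMPCs (5.26 ± 1.19) and MEFs (3.93 ± 1.14) and lower in ASC (-6.53 ± 2.02), but neither DESeq2 nor library size scaling made any of these 4 calls. Against mouse 1 alone the difference in Pax7-positive iMPCs was 2.42, and against mouse 3 alone 8.59. The ASC difference was -6.20 against mouse 1 alone and -0.03 against mouse 3 alone, with 1 count each in ASC and in mouse 3, so the lower call in ASC rests on mouse 1.

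**Figure D3:**
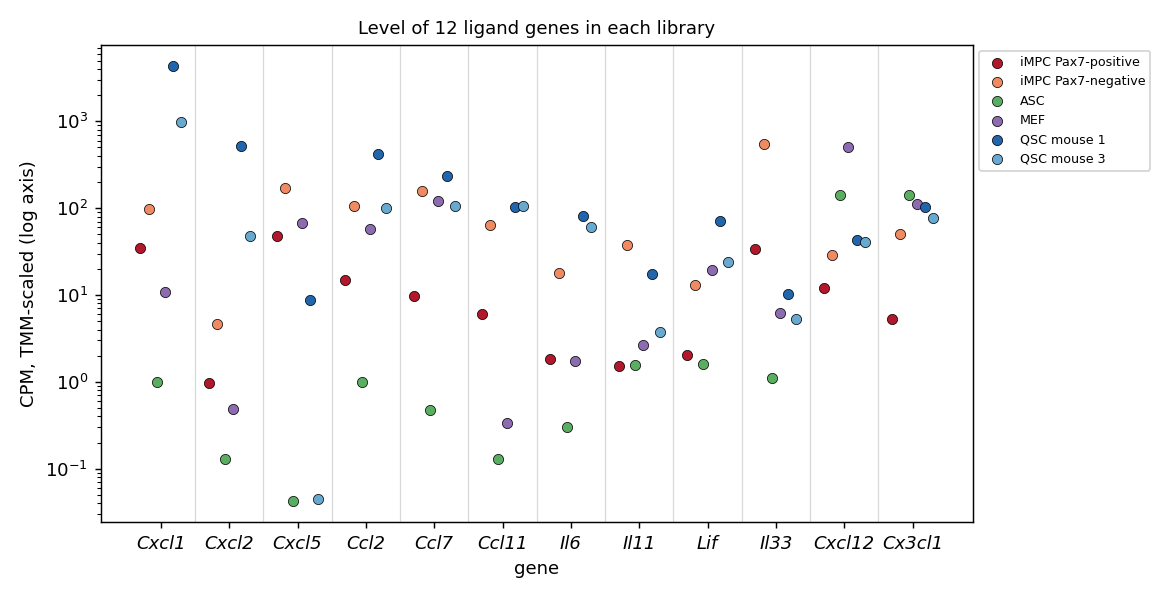
CPM of 12 members (vertical log axis) in each of the 6 libraries, TMM-scaled, 1 point per library. Cxcl1 and Cxcl2 are highest in the QSC libraries, Il33 at 544 CPM in Pax7-negative iMPCs and Cxcl12 at 509 CPM in MEFs, and the ASC points are the lowest for Ccl2, Ccl7, Ccl11 and Il6.

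The homeostatic CXC chemokines did not share the QSC pattern. Cxcl12, which holds Cxcr4-bearing cells in place and is made by stromal cells, had 11.9 CPM in Pax7-positive iMPCs, 28.6 in Pax7-negative iMPCs, 141 in ASC and 509 in MEFs, against 43.2 and 41.2 CPM in QSC. It rose in MEFs by 3.59 ± 0.58 on the log2 scale (edgeR adjusted p = 0.000392) and in ASC by 1.73 ± 0.57 (edgeR adjusted p = 0.039), a call absent with RLE size factors. In Pax7-positive iMPCs it lay below both QSC mice (-1.83 ± 0.65, edgeR adjusted p = 0.0546), and DESeq2 called that difference. Cxcl14, a chemokine of epithelia and fibroblasts, had 26.2 CPM in Pax7-positive iMPCs, 54.1 in Pax7-negative iMPCs, 0.172 in ASC and 44.9 in MEFs, against 11.1 and 15.6 CPM in QSC. It rose in Pax7-negative iMPCs (2.02 ± 0.63, edgeR adjusted p = 0.0328) and fell in ASC (-6.24 ± 1.00, edgeR adjusted p = 0.000311). Cxcl13, the B cell attractant, had 3.86 CPM in Pax7-positive iMPCs, 13.3 in Pax7-negative iMPCs, 0.991 in ASC and 0 counts in MEFs, against 0.143 and 0.136 CPM in QSC. It rose in Pax7-positive iMPCs (4.74 ± 1.19, edgeR adjusted p = 0.00967) and in Pax7-negative iMPCs (6.53 ± 1.23), with DESeq2 and library size scaling as well.

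Of the lymphocyte attractants of the CXC class, Cxcl16, the ligand of Cxcr6, had 0.45 CPM in Pax7-positive iMPCs, 2.63 in Pax7-negative iMPCs, 0.862 in ASC and 3.44 in MEFs, against 38.6 and 41.6 CPM in QSC. The QSC mice were close to each other and far above the rest, and the difference was -6.46 ± 1.05 in Pax7-positive iMPCs (edgeR adjusted p = 0.00047) and -3.54 ± 0.88 in MEFs (edgeR adjusted p = 0.00922), with the calls in MEFs and in Pax7-negative iMPCs lost under library size scaling. Cxcl10, an interferon-induced ligand of Cxcr3, had 0.579 CPM in Pax7-positive iMPCs, 1.28 in Pax7-negative iMPCs, 0.302 in ASC and 0.561 in MEFs, against 56.5 and 26 CPM in QSC. Its difference lay between -7.07 ± 1.16 in ASC and -5.00 ± 1.02 in Pax7-negative iMPCs, and it fell in all 4 with DESeq2 and library size scaling too. Genes on the other strand overlap Ccl2, Ccl19, Cxcl16, Cxcl10, Ccl27a, Ccl25, Il34, Il18, Il16, Ccl21a and Il1b in GENCODE M21, and whether counting used the strand is not given in the sources used here, so reads of these pairs cannot be told apart.

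Among the CC chemokines of monocytes and eosinophils, only Ccl2, Ccl7, Ccl8 and Ccl11 reached 5 CPM in some library. The sum of the class was higher in QSC, Pax7-negative iMPCs and MEFs than in Pax7-positive iMPCs, and lowest in ASC. As a class of 11 genes they summed to 31 CPM in Pax7-positive iMPCs, 334 in Pax7-negative iMPCs, 2.02 in ASC and 180 in MEFs, against 779 and 327 CPM in QSC. By edgeR, 7 of the 11 fell in Pax7-positive iMPCs, 0 in Pax7-negative iMPCs, 5 in ASC and 3 in MEFs, where 9.31%, 6.57%, 8.24% and 8.03% of all genes tested were lower. In Pax7-negative iMPCs, 3 of the 11 were lower at an unadjusted edgeR p under 0.05, and DESeq2 called 0. With library size scaling the lower calls were 3 in Pax7-positive iMPCs, 0 in Pax7-negative iMPCs, 3 in ASC and 1 in MEFs. Ccl2, the main Ccr2 ligand that recruits monocytes, had 14.7 CPM in Pax7-positive iMPCs, 107 in Pax7-negative iMPCs, 0.991 in ASC and 57.1 in MEFs, against 423 and 101 CPM in QSC. It fell in Pax7-positive iMPCs (-4.15 ± 0.91, edgeR adjusted p = 0.0041, not called with library size scaling) and in ASC (-8.04 ± 1.13, edgeR adjusted p = 8.82e-05). The level in Pax7-negative iMPCs lay between the QSC mice (-1.29 ± 0.77, edgeR adjusted p = 0.25).

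Ccl7, which also acts on Ccr2, had 9.85 CPM in Pax7-positive iMPCs, 156 in Pax7-negative iMPCs, 0.474 in ASC and 122 in MEFs, against 234 and 106 CPM in QSC. Pax7-negative iMPCs and MEFs lay between the QSC mice, whereas Pax7-positive iMPCs (-4.11 ± 0.80, edgeR adjusted p = 0.00176) and ASC (-8.47 ± 1.02, edgeR adjusted p = 2.18e-05) lay below both. Ccl11, the eosinophil attractant eotaxin, had 6.02 CPM in Pax7-positive iMPCs, 64.8 in Pax7-negative iMPCs, 0.129 in ASC and 0.336 in MEFs, against 104 and 107 CPM in QSC. MEFs lay near ASC for this gene and not near QSC. It fell by 8.27 ± 0.97 in MEFs (edgeR adjusted p = 2.29e-05), fell by 9.62 ± 1.06 in ASC and fell by 4.13 ± 0.76 in Pax7-positive iMPCs, with -0.70 ± 0.62 in Pax7-negative iMPCs (edgeR adjusted p = 0.455). Ccl8 had 0 counts in Pax7-positive iMPCs, 0.878 CPM in Pax7-negative iMPCs, 0 counts in ASC and 0.0374 CPM in MEFs, against 7.53 and 1.18 CPM in QSC. edgeR called it lower in Pax7-positive iMPCs, at least 44.2-fold (78 against mouse 1 alone and 12.2 against mouse 3 alone), in ASC, at least 33-fold (58.3 and 9.1), and in MEFs, and none of these calls was made with library size scaling.

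Cx3cl1, the membrane-anchored ligand of Cx3cr1, set Pax7-positive iMPCs apart from all other libraries. Its level was 5.31 CPM in Pax7-positive iMPCs, 50 in Pax7-negative iMPCs, 141 in ASC and 113 in MEFs, against 102 and 76.9 CPM in QSC. The difference in Pax7-positive iMPCs was -4.07 ± 0.75 (edgeR adjusted p = 0.00123), and those in ASC (0.66 ± 0.59), MEFs (0.34 ± 0.59) and Pax7-negative iMPCs (-0.84 ± 0.62) did not pass.

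The lymphoid homing chemokines Ccl19 and Ccl21a, both ligands of Ccr7, were read in QSC and next to nowhere else. Ccl19 had 0 counts in Pax7-positive iMPCs, 0.236 CPM in Pax7-negative iMPCs, 0 counts in ASC and 0 counts in MEFs, against 70.4 and 115 CPM in QSC. With 3 counts as the floor of the 1 library it was at least 967-fold lower in Pax7-positive iMPCs, 722-fold lower in ASC and 832-fold lower in MEFs than in QSC. In Pax7-negative iMPCs it fell by 8.59 ± 1.05 (edgeR adjusted p = 3.68e-05). Ccl21a had 0 counts in both iMPC fractions and in ASC and 0.0374 CPM in MEFs, against 10.0 and 10.6 CPM in QSC. It was at least 107-fold lower in Pax7-positive iMPCs, 102-fold lower in Pax7-negative iMPCs and 79.7-fold lower in ASC. Ccl21a and Ccl27a have near-identical copies in the mouse genome between which reads may be split, and Ccl27a also overlaps Il11ra1, a gene on the other strand. Ccl27a, a skin-homing chemokine, had 1.87 CPM in Pax7-positive iMPCs, 3.04 in Pax7-negative iMPCs, 3.14 in ASC and 3.10 in MEFs, against 11.3 and 17.6 CPM in QSC. All 4 lay below both mice, edgeR's adjusted p ran between 0.0561 and 0.132, and DESeq2 called it lower in Pax7-positive iMPCs. Ccl25, known from the thymus and gut, varied little, with 3.64 CPM in Pax7-positive iMPCs, 4.66 in Pax7-negative iMPCs, 6.03 in ASC and 4.56 in MEFs, against 9.87 and 4.52 CPM in QSC, and no difference passed.

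In the IL-1 family, Il33, an alarmin held in the nucleus and released from damaged cells, was the leading member in Pax7-negative iMPCs. It had 33.5 CPM in Pax7-positive iMPCs, 544 in Pax7-negative iMPCs, 1.12 in ASC and 6.20 in MEFs, against 10.3 and 5.29 CPM in QSC. Both iMPC fractions lay above both QSC mice, MEFs lay between the mice and ASC below them. It rose by 2.10 ± 0.60 in Pax7-positive iMPCs (edgeR adjusted p = 0.0203) and by 6.12 ± 0.67 in Pax7-negative iMPCs (edgeR adjusted p = 1.24e-05), and fell by 2.80 ± 0.75 in ASC (edgeR adjusted p = 0.0142), the last of these not called with library size scaling. In MEFs the difference was -0.33 ± 0.64 (edgeR adjusted p = 0.751). The 8 fibroblast markers, such as Col1a1 and Pdgfra, summed to 2061 CPM in Pax7-positive and 8081 CPM in Pax7-negative iMPCs. The sums were 661 CPM in ASC and 15936 CPM in MEFs, against 1081 and 707 CPM in QSC. Of these markers, Col1a1, Col1a2 and Fbn1 were highest in MEFs. Col3a1, Dcn, Lum, Pdgfra and Thy1 were highest in Pax7-negative iMPCs. Their part in the level of Il33 was not tested.

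Il18, which drives interferon-gamma production, had 0.0643 CPM in Pax7-positive iMPCs, 0.507 in Pax7-negative iMPCs, 1.94 in ASC and 0.897 in MEFs, against 10.6 and 9.32 CPM in QSC. It fell in Pax7-positive iMPCs (-7.17 ± 1.60, edgeR adjusted p = 0.00477) and in Pax7-negative iMPCs (-4.29 ± 1.31, edgeR adjusted p = 0.0301), the second not with library size scaling. Il1b, a cytokine of activated macrophages, had 0.0643 CPM in Pax7-positive iMPCs, 0.0675 in Pax7-negative iMPCs, 2.50 in ASC and 0.112 in MEFs, against 2.53 and 9.36 CPM in QSC. edgeR called it lower in both iMPC fractions and MEFs (-6.43 ± 1.83, -6.36 ± 1.83 and -5.67 ± 1.74), which library size scaling did not. As a sum, the immune cell markers had 3.19 to 17.7 CPM in the 4 other libraries, against 313 and 193 CPM in QSC. The sum was thus lower than in QSC in the same libraries as Il18, Ccl19, Ccl6 and Ccl4. Of 13 markers tested, 8 were called lower in Pax7-positive iMPCs, 5 in Pax7-negative iMPCs, 6 in ASC and 5 in MEFs. Of all genes tested, 9.31%, 6.57%, 8.24% and 8.03% were lower. Mrc1 lay above both QSC mice in both iMPC fractions (1.16 and 2.06 CPM, against 1.1 and 0.362 CPM), as did Itgam in ASC and Ly6g in MEFs. The part of the immune cell markers in these results was not tested. In ASC, Il1b had 2.50 CPM, against 2.53 and 9.36 CPM in QSC, and the markers summed to 8.36 CPM, against 313 and 193 CPM. Between the QSC mice, Il1b (2.53 and 9.36 CPM), Ccl4 (0.763 and 3.75 CPM) and Ccl19 (70.4 and 115 CPM) were higher in mouse 3. The markers Cd74, S100a8, C1qa, Cd68 and Cd3e were also higher in mouse 3, and the other markers, Lyz2 among them, were higher in mouse 1. Of these 15 markers, 6 had no count in Pax7-positive iMPCs, 4 in Pax7-negative iMPCs and 1 each in ASC and MEFs, against 0 in QSC of mouse 1 and 1 in QSC of mouse 3. Within QSC, the pan-leukocyte marker Ptprc had 1.62 and 0.995 CPM and the macrophage gene Lyz2 had 182 and 54.4 CPM.

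The gp130 ligands were highest in QSC except for Il11. Il6, a cytokine that satellite cells and muscle fibres both make, had 1.83 CPM in Pax7-positive iMPCs, 17.7 in Pax7-negative iMPCs, 0.302 in ASC and 1.76 in MEFs, against 81.7 and 61.4 CPM in QSC. All 4 lay below both mice, and it fell by 5.28 ± 0.87 in Pax7-positive iMPCs (edgeR adjusted p = 0.000498), fell by 7.87 ± 1.02 in ASC and fell by 5.34 ± 0.87 in MEFs, with -2.01 ± 0.71 in Pax7-negative iMPCs (edgeR adjusted p = 0.0571; called by DESeq2). Lif, a growth factor for myoblasts, had 2.03 CPM in Pax7-positive iMPCs, 13.2 in Pax7-negative iMPCs, 1.59 in ASC and 19.2 in MEFs, against 71.8 and 24.1 CPM in QSC. Again all 4 lay below both mice, and it fell in Pax7-positive iMPCs (-4.56 ± 0.95, edgeR adjusted p = 0.00299, not called with library size scaling) and ASC (-4.91 ± 0.98, edgeR adjusted p = 0.00188). Il11, a cytokine of fibroblasts, had 1.54 CPM in Pax7-positive iMPCs, 37.7 in Pax7-negative iMPCs, 1.55 in ASC and 2.69 in MEFs, against 17.5 and 3.75 CPM in QSC. Pax7-negative iMPCs were above both QSC mice and the other 3 libraries below them, and no difference passed with edgeR, while DESeq2 called it lower in Pax7-positive iMPCs and ASC.

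Il34, a ligand of the Csf1 receptor, had 0.933 CPM in Pax7-positive iMPCs, 4.15 in Pax7-negative iMPCs, 13.8 in ASC and 1.05 in MEFs, against 3.05 and 1.40 CPM in QSC. ASC was the highest library, with a difference from QSC of 2.63 ± 1.00 (edgeR adjusted p = 0.0729). Il16, a Cd4 ligand, had 0.0643 CPM in Pax7-positive iMPCs, 2.87 in Pax7-negative iMPCs, 0 counts in ASC and 1.01 in MEFs, against 1.38 and 13.8 CPM in QSC, and its QSC level came mostly from mouse 3. It was called lower in Pax7-positive iMPCs (-3.36 against mouse 1 alone and -6.61 against mouse 3 alone) and in ASC, at least 60-fold (10.7 against mouse 1 and 107 against mouse 3), by edgeR and DESeq2 but not with library size scaling. Il12a, the p35 chain of IL-12, had 1.13 CPM in Pax7-positive iMPCs, 0.608 in Pax7-negative iMPCs, 3.23 in ASC and 0 counts in MEFs, against 5.05 and 2.98 CPM in QSC. It fell in MEFs, at least 35.6-fold (edgeR adjusted p = 0.0102). Il19, of the IL-10 family, had 0.225 CPM in Pax7-positive iMPCs, 8.61 in Pax7-negative iMPCs, 0.0431 in ASC and 0.0374 in MEFs, against 0.715 and 0.452 CPM in QSC. It rose in Pax7-negative iMPCs (3.87 ± 1.24, edgeR adjusted p = 0.0375), a call that DESeq2 did not make.

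The other 24 members stayed below 5 CPM in every library, with a highest value of 4.96 CPM, and 6 of them (Il2, Il1a, Il22, Il23a, Il27 and Il25) were too low to be tested. Of these 24, 14 were highest in a QSC library, 7 in Pax7-negative iMPCs, 2 in Pax7-positive iMPCs and 1 in ASC. No share over all genes is set beside these counts either. edgeR called 4 of them in some comparison. Ccl6, a monocyte attractant of rodents, had 0 counts in Pax7-positive iMPCs, 0.203 CPM in Pax7-negative iMPCs, 0.215 in ASC and 0.187 in MEFs, against 4.96 and 3.71 CPM in QSC. Ccl4, a chemokine of macrophages, had 0 counts in Pax7-positive iMPCs, 0.0338 CPM in Pax7-negative iMPCs, 0.0431 in ASC and 0 counts in MEFs, against 0.763 and 3.75 CPM in QSC. Ccl9 was highest in Pax7-negative iMPCs, with 0 counts in Pax7-positive iMPCs, 4.83 CPM in Pax7-negative iMPCs, 0 counts in ASC and 0.822 CPM in MEFs, against 2.19 and 0.904 CPM in QSC. Ccl20, the Ccr6 ligand, had 0.0965 CPM in Pax7-positive iMPCs, 1.69 in Pax7-negative iMPCs, 0 counts in ASC and 1.12 in MEFs, against 0 counts in both QSC libraries. Ccl6 and Ccl9 fell in Pax7-positive iMPCs and Ccl9 also in ASC, Ccl4 fell in Pax7-positive iMPCs and MEFs, and Ccl20 rose in Pax7-negative iMPCs and MEFs. Except for Ccl6, none of these calls held with library size scaling. DESeq2 called neither Ccl20 in Pax7-negative iMPCs and MEFs nor Ccl4 in MEFs. Il7, a lymphocyte growth factor, was highest in Pax7-positive iMPCs, with 4.21 CPM in Pax7-positive iMPCs, 0.946 in Pax7-negative iMPCs, 3.10 in ASC and 1.57 in MEFs, against 0.572 and 1.22 CPM in QSC, and passed in no comparison.

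The sorted iMPC fractions came from the same kind of culture and differ by the Pax7 reporter. Among members at 5 CPM or more in either fraction, 15 in all, every one was lower in the Pax7-positive than in the Pax7-negative library. With 1 library each there is no test. By a rule of size, at least 4-fold with at least 5 CPM in the higher library, 0 members were higher and 10 were lower in Pax7-positive iMPCs, against a background of 0.208% of genes higher and 6.66% lower. The members' median log2 difference was -3.22, against 0.06 for all genes at that level. Il19 was 38.2-fold lower (95% counting interval 18.3 to 96.1), Il11 24.4-fold (18.3 to 33.3), Il33 16.2-fold (15.3 to 17.3) and Ccl7 15.8-fold (14.1 to 17.8). Cxcl3, Ccl11, Il6, Cx3cl1, Ccl2 and Lif were between 12.5-fold and 6.53-fold lower. Cxcl5 at 3.58-fold, Cxcl13 at 3.45-fold, Cxcl1 at 2.74-fold, Cxcl12 at 2.41-fold and Cxcl14 at 2.06-fold lower did not reach 4-fold. The intervals cover counting error only and compare libraries. The fibroblast markers, at 2061 CPM in the Pax7-positive and 8081 CPM in the Pax7-negative fraction, moved with these genes. So did the endothelial markers (5.15 and 22.5 CPM) and the immune cell markers (3.19 and 17.7 CPM). The muscle genes Myh3 (47.7 and 629 CPM), Acta1 (60.2 and 826 CPM) and Myog (892 and 1358 CPM) were also lower in the Pax7-positive fraction. The muscle lineage markers Pax7, Myf5, Myod1 and Des were higher there. The part of these lists in the result was not tested.

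**Figure D4:**
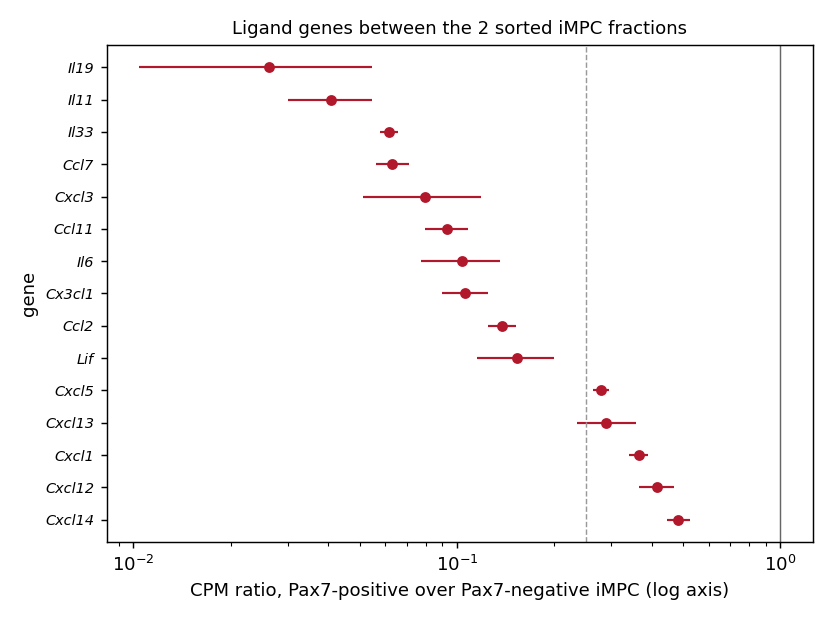
Ratio of CPM in Pax7-positive over Pax7-negative iMPCs (horizontal log axis) for the 15 members at 5 CPM or more in either library. Points are ratios, bars 95% counting intervals, the solid line marks equality and the dashed line 4-fold lower. All 15 points lie left of equality, and Il19 and Il11 lie farthest from it.

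Pax7-positive iMPCs and MEFs, a kind of cell from which iMPCs can be made, had 10 members at 5 CPM or more in either. By the same rule 2 were higher and 4 were lower in Pax7-positive iMPCs, against backgrounds of 4.97% and 8.71%. Ccl11 was 17.9-fold higher (counting interval 9.22 to 39.7) and Il33 5.4-fold higher (4.58 to 6.4). Cxcl12 was 42.8-fold lower (38.6 to 47.6), Cx3cl1 21.3-fold, Ccl7 12.4-fold and Lif 9.5-fold lower. Cxcl1 (3.26-fold higher), Ccl2 (3.89-fold lower), Cxcl14 (1.71-fold lower) and Cxcl5 (1.42-fold lower) stayed within 4-fold. The fibroblast markers, at 2061 CPM in Pax7-positive iMPCs and 15936 CPM in MEFs, and the immune cell markers, at 3.19 and 17 CPM, were also lower in Pax7-positive iMPCs, and their part in these differences was not tested.

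The QSC mice, on whose spread every test rests, differed in the neutrophil attractants among others. Of 25 members at 5 CPM or more in either, 7 were at least 4-fold higher and 1 was at least 4-fold lower in mouse 1 than in mouse 3, against backgrounds of 2.73% and 1.17%. Cxcl5 was 195-fold higher (34.6 to 7746, from 1 count in mouse 3), Cxcl3 22-fold (15.2 to 33.2), Cxcl2 11.1-fold (10.4 to 11.8), Ccl8 6.41-fold, Il11 4.65-fold, Cxcl1 4.39-fold and Ccl2 4.2-fold. All 4 ELR CXC members that reached 5 CPM were in this group. Il16 was 9.97-fold lower (6.81 to 15.1) and Il1b 3.7-fold lower (2.73 to 5.11) in mouse 1. Other members were close: Ccl11 had 104 and 107 CPM, Cxcl12 43.2 and 41.2 CPM and Cxcl16 38.6 and 41.6 CPM in mouse 1 and mouse 3. The sums of the immune markers (313 and 193 CPM) and of the endothelial markers (179 and 42.5 CPM) were higher in mouse 1. The sum of the dissociation stress genes (63543 and 75163 CPM) was higher in mouse 3. The part of these lists in the differences between the mice was not tested.

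Of 14 tested chemokine receptors, 3 fell and 1 rose in Pax7-positive iMPCs, 2 fell in Pax7-negative iMPCs, 3 fell in ASC, and 4 fell and 1 rose in MEFs. Of all genes tested, 9.31% were lower and 11.3% higher in Pax7-positive iMPCs, 6.57% and 12.1% in Pax7-negative iMPCs, 8.24% and 11.8% in ASC and 8.03% and 11.3% in MEFs. Cxcr2, the receptor of the ELR chemokines, stayed at or below 0.317 CPM in every library, Ccr2 at or below 0.769 CPM and Cx3cr1 at or below 0.271 CPM. Ackr3, a scavenger of Cxcl12, had 17.2 CPM in Pax7-positive iMPCs, 29.1 in Pax7-negative iMPCs, 31.6 in ASC and 7.74 in MEFs, against 358 and 254 CPM in QSC, and fell in all 4. Cxcr4, the signalling receptor of Cxcl12, had 9.75 CPM in Pax7-positive iMPCs, 2.13 in Pax7-negative iMPCs, 17 in ASC and 0.224 in MEFs, against 7.53 and 12.4 CPM in QSC, and fell in MEFs (-5.45 ± 1.21, edgeR adjusted p = 0.00448), where Cxcl12 was highest. Ccrl2, a decoy-type receptor, had 0.579 CPM in Pax7-positive iMPCs, 2.09 in Pax7-negative iMPCs, 0.0862 in ASC and 0 counts in MEFs, against 35.2 and 31 CPM in QSC, and fell in all 4. Darc, a chemokine-binding receptor that does not signal, had 0 counts in Pax7-positive iMPCs, 0.608 CPM in Pax7-negative iMPCs, 0 counts in ASC and 0.149 CPM in MEFs, against 15.4 and 1.63 CPM in QSC. It fell in Pax7-positive iMPCs, ASC and MEFs, in none of them with library size scaling. Cxcr6, the receptor of Cxcl16, had 7.10 CPM in MEFs and rose there, with 0.129 CPM in ASC and 0 counts in both iMPC fractions and both QSC libraries.

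The 29 tested interleukin and Lif receptor genes gave 2 higher and 4 lower calls in Pax7-positive iMPCs, 4 and 3 in Pax7-negative iMPCs, 2 and 4 in ASC and 3 and 3 in MEFs. Of all genes tested, 11.3% were higher and 9.31% lower in Pax7-positive iMPCs, and 12.1% and 6.57% in Pax7-negative iMPCs. In ASC these shares were 11.8% and 8.24%, and in MEFs 11.3% and 8.03%. Il1rl1, the receptor of Il33, had 4.25 CPM in Pax7-positive iMPCs, 138 in Pax7-negative iMPCs, 0.732 in ASC and 648 in MEFs, against 1.91 and 0.136 CPM in QSC. It rose in Pax7-negative iMPCs (7.08 ± 0.92, edgeR adjusted p = 5.9e-05) and in MEFs (9.31 ± 0.99, edgeR adjusted p = 1.1e-05), with 2.06 ± 0.84 in Pax7-positive iMPCs (edgeR adjusted p = 0.0919). Il33 and its receptor thus both passed in Pax7-negative iMPCs, Il33 without the receptor in Pax7-positive iMPCs and the receptor without Il33 in MEFs. The shared chain Il6st, at 131 CPM in Pax7-positive iMPCs, 292 in Pax7-negative iMPCs, 215 in ASC and 428 in MEFs, against 245 and 212 CPM in QSC, passed in no comparison, nor did Lifr (77, 51.8, 15.8 and 28.1 CPM, against 39.1 and 24.6 CPM in QSC). Il11ra1, the Il11 receptor, had 10.5 CPM in Pax7-positive iMPCs, 51.6 in Pax7-negative iMPCs, 22.9 in ASC and 83.8 in MEFs, against 289 and 334 CPM in QSC, and fell in all 4. Il13ra1, a receptor chain for Il4 and Il13, rose in all 4, with 126, 147, 29.1 and 87.7 CPM in the same order, against 5.77 and 2.71 CPM in QSC. Il13ra2, a decoy receptor of Il13, rose in both iMPC fractions, with 1.74 CPM in Pax7-positive iMPCs, 9.02 in Pax7-negative iMPCs, 0.0431 in ASC and 0.0747 in MEFs, against 0 counts in both QSC libraries. Il17ra, the Il17 receptor, fell in all 4, with 6.56 CPM in Pax7-positive iMPCs, 21.8 in Pax7-negative iMPCs, 45.2 in ASC and 28.8 in MEFs, against 376 and 281 CPM in QSC. The Il15 receptor Il15ra also fell in all 4, with 0.965, 5.98, 1.21 and 4.78 CPM in the same order, against 44.1 and 31.8 CPM in QSC. With library size scaling the call was lost for Il17ra in ASC and for Il15ra in Pax7-negative iMPCs and MEFs. Among 14 tested ligands outside the naming rule, 4 fell in Pax7-positive iMPCs, 2 rose and 1 fell in Pax7-negative iMPCs, 3 fell in ASC, and 2 rose and 2 fell in MEFs. The shares over all genes are those given above for the receptor genes. Clcf1, a further gp130 ligand, had 4.83 CPM in Pax7-positive iMPCs, 7.73 in Pax7-negative iMPCs, 11.1 in ASC and 18.4 in MEFs, against 624 and 945 CPM in QSC, and fell in all 4. Csf3, the granulocyte growth factor, fell in Pax7-positive iMPCs (0.0322 CPM) and ASC (0 counts), with 2.90 CPM in Pax7-negative iMPCs and 0.299 in MEFs, against 14.6 and 0.814 CPM in QSC. Il1rn, the antagonist of the Il1 receptor, fell in Pax7-positive iMPCs (0.0643 CPM) and rose in Pax7-negative iMPCs (9.69 CPM) and MEFs (56.4 CPM), with 3.70 CPM in ASC, against 0.858 and 1.58 CPM in QSC. The lower calls of Csf3 and Il1rn were not made with library size scaling. Ppbp, a further ELR chemokine, rose in Pax7-negative iMPCs (9.49 CPM) and MEFs (32.6 CPM), with 0.611 CPM in Pax7-positive iMPCs and 0.0431 in ASC, against 0.286 CPM and 0 counts in QSC.

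Genes known to be switched on by NF-kB and inflammatory signals were mostly lower in the 4 groups than in QSC. Of 24 tested, Pax7-positive iMPCs had 2 higher and 18 lower, Pax7-negative iMPCs 2 and 17, ASC 2 and 18 and MEFs 1 and 17, with medians of -3.67, -2.89, -4.33 and -3.59. The shares of all genes tested were 11.3% higher and 9.31% lower in Pax7-positive iMPCs, and 12.1% and 6.57% in Pax7-negative iMPCs. They were 11.8% and 8.24% in ASC, and 11.3% and 8.03% in MEFs. Zfp36, which destabilises cytokine messages, had 47.2 CPM in Pax7-positive iMPCs, 67.1 in Pax7-negative iMPCs, 16.3 in ASC and 127 in MEFs, against 3481 and 3310 CPM in QSC. Birc3, an inhibitor of apoptosis, had 2.86 CPM in Pax7-positive iMPCs, 24.3 in Pax7-negative iMPCs, 2.33 in ASC and 12.9 in MEFs, against 156 and 314 CPM in QSC, and fell in all 4. The early response gene Ier3 and the transcription factors Cebpb and Cebpd fell in all 4 as well, though with library size scaling Birc3, Ier3, Cebpb and Cebpd were not called in Pax7-negative iMPCs, nor Ier3 in MEFs. The prostaglandin synthase Ptgs2 rose in all 4, with 11, 124, 88.1 and 505 CPM in the same order, against 2.38 and 2.03 CPM in QSC, and is named after its values were seen. Interferon-response genes, 15 of them tested, gave 9 lower calls in Pax7-positive iMPCs, 2 in Pax7-negative iMPCs, 9 in ASC and 7 in MEFs. The shares of all genes called lower are those just given for the NF-kB list. Isg15 had 0.869 CPM in Pax7-positive iMPCs, 5.2 in Pax7-negative iMPCs, 0.603 in ASC and 2.39 in MEFs, against 25.7 and 24.1 CPM in QSC. Mx2, an antiviral GTPase, fell in Pax7-positive iMPCs (0.0322 CPM) and MEFs (0.0374 CPM), with 0.507 CPM in Pax7-negative iMPCs and 0.388 in ASC, against 2.91 and 12.8 CPM in QSC. Irf7 and Ifit1 fell in Pax7-positive iMPCs, ASC and MEFs, and Gbp2 fell in both iMPC fractions and ASC. With library size scaling no call of Mx2, Irf7 or Ifit1 was made, nor that of Gbp2 in Pax7-negative iMPCs. All 10 dissociation stress genes fell in each of the 4 comparisons. These lists moved with the QSC-high members, and their part in the members' differences was not tested.

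**Figure D5:**
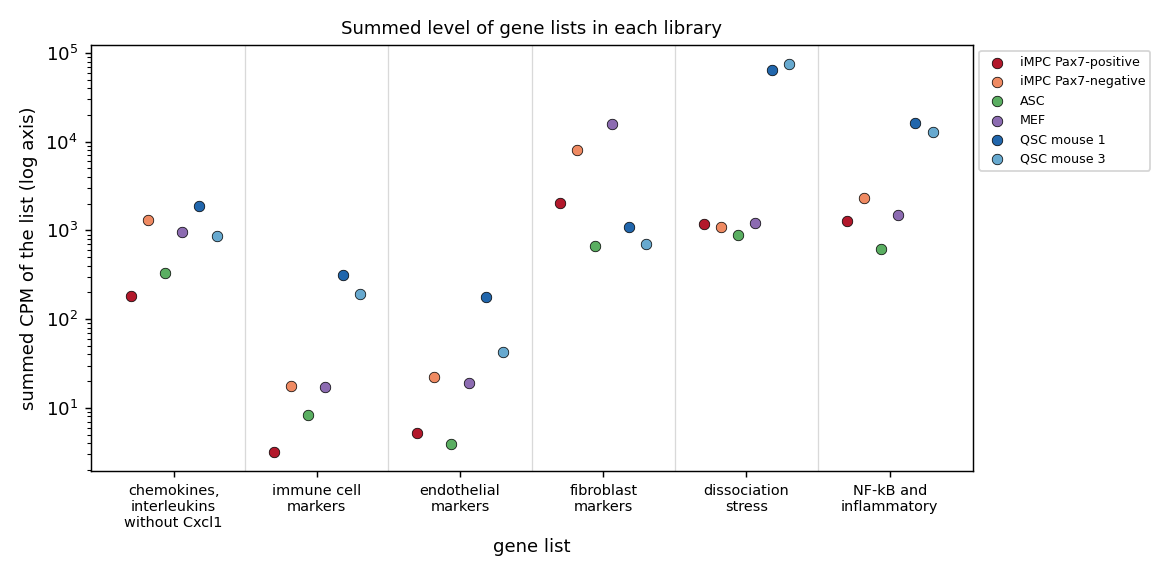
Summed CPM (vertical log axis) of the members without Cxcl1 and of 5 gene lists in each of the 6 libraries, 1 point per library. The stress, immune and NF-kB lists are highest in the QSC libraries, with stress genes at 63543 and 75163 CPM in QSC and at most 1202 CPM elsewhere, whereas the members without Cxcl1 reach 1317 CPM in Pax7-negative iMPCs, between the QSC mice.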

How the data were processed

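Each of the 6 libraries came with unnormalized gene counts deposited by the authors, who also deposited RPKM values with gene symbols; these equalled the counts scaled to summed counts and gene length (largest relative deviation 3.26e-14). The submitters' processing notes name mm9, HTSeq 0.6.0, STAR 2.3.0, Picard 1.100 and edgeR; the sources used here give no roles, annotation or strand setting. The tests used edgeR 4.0.16 (limma 3.58.1, R 4.3.3): expression filter by group (17116 genes), TMM, 1 coefficient per group, two-sided quasi-likelihood F test, Benjamini-Hochberg over all genes tested, threshold 0.05. QSC gave the only residual degree of freedom (1), and every lone library was assumed to vary as these mice do. Standard errors are the fold change over the root of F. By-mouse differences and the rule of size (4-fold, 5 CPM) use log2 CPM with a prior count of 2. Counting intervals are exact at 95%, floors are 3 counts, and both cover counting error only. Members, gene lists and motifs were chosen with earlier results of these data known. Members at 5 CPM or more in a library are given in every library, the rest by counts and range; of other lists, up to 5 genes each were taken from the largest called differences at 5 CPM in Pax7-positive iMPCs and then MEFs, with receptors of the members. Alternatives were library size alone, RLE, DESeq2 1.42.0, other filters and each QSC mouse left out. The fit was tested on simulated counts.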

Additional observations from a re-analysis of the deposited data

How the results depend on the processing

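No paired analysis was possible because the groups compared share fewer than 2 replicate numbers. With library size alone, members lower numbered 12 in Pax7-positive iMPCs (19 with TMM) and 3 in Pax7-negative iMPCs (8 with TMM). With DESeq2, members higher numbered 3 in Pax7-negative iMPCs (6 with edgeR) and 1 in MEFs (3 with edgeR). In ASC, 0 members were higher with RLE size factors and 2 with no filter on low counts, against 1. With a minimum of 1 CPM in place of 5, the rule of size gave 1 member higher and 17 lower in Pax7-positive than in Pax7-negative iMPCs (0 and 10), 4 higher and 8 lower in Pax7-positive iMPCs than in MEFs (2 and 4), and 3 lower in QSC of mouse 1 than of mouse 3 (1). The shares of all genes at a minimum of 1 CPM are not given here, so these counts are not read as a result about the members. Causes of the shifts between settings were not tested. No direction of a called difference reversed under library size scaling, DESeq2 or leaving out a QSC mouse. Of the 4 differences of each member at 5 CPM or more, DESeq2 left 99 on their side of the threshold, newly called 8 and lost 5, and library size scaling left 90, newly called 1 and lost 21. Without QSC of mouse 1 or of mouse 3 no degree of freedom is left, so these give values only. Limits: 1 library per group except QSC, a QSC pair of unlike sex, and low counts for members under 5 CPM.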
